A study of Mus musculus with 13 samples.

Results

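Rescued Treg cells were compared with Treg “wannabes”, the cells that attempt to become regulatory T (Treg) cells but carry a reporter in place of a working *Foxp3*. The comparison holds 5 of the 13 libraries of the series, 3 of rescued Treg cells and 2 of “wannabes”, chosen by their labels and by the names of their columns in the count table. All 5 came from male C57BL/6 mice that carry *Foxp3*LSL, an allele in which a loxP-flanked Thy1.1 reporter and STOP cassette in the first exon prevents Foxp3 protein from being made, with GFP behind it. Rescued cells were sorted from *Foxp3*LSL/y*Cd4*creERT2 mice, in which the tamoxifen-activated Cre recombinase expressed from *Cd4* removes the cassette, and “wannabes” from *Foxp3*LSL/y*Cd4*wt mice, which have no recombinase. Mice of both kinds were given 4-hydroxytamoxifen once, at day 14 after birth, and were analyzed 7 days later, at day 21. TCRβ+CD4+ cells were sorted by 2 rounds, as GFP+Thy1.1- (rescued) or Thy1.1+GFP- (“wannabes”), from pooled spleen and lymph nodes, and sequencing libraries were made with SMART-Seq v4, a kit for little RNA. In addition, 3 libraries of Treg cells from healthy male *Foxp3*DTR-GFP/y*Cd4*creERT2 mice given the same dose, here called control Treg cells, entered the fit and are given as a level beside the comparison. The recombinase allele, the reporter that was gated on and the state of the mouse all differ between rescued Treg cells and “wannabes”, so their parts in any difference cannot be told apart.

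Foxp3 is the transcription factor that sets up and maintains the Treg cell program. Treg cells with this program restrain other T cells through inhibitory receptors such as CTLA-4, by taking up IL-2 through the high-affinity IL-2 receptor, and through secreted mediators. Cells that transcribe a *Foxp3* locus without making the protein keep parts of the program, such as a high IL-2 receptor, and also make cytokines that Treg cells normally do not.

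Total counts were between 25558402 and 36660933 in the rescued libraries and 34101232 and 31942224 in the “wannabe” libraries. Libraries of 1 group had Pearson correlations of log2 library-scaled counts across genes between 0.934 and 0.948, and no pair was as alike as counting noise alone would leave it. Of 24417 named genes, 14925 had enough counts to be tested. Levels below are normalized counts, that is counts divided by each library's scaled size, in the order rescued replicates 1, 2, 3 and then “wannabe” replicates 1, 2. A gene was called when its adjusted p was under 0.05 in the quasi-likelihood test of edgeR, adjusted by Benjamini and Hochberg's method across the tested genes, and fold changes are log2 of rescued over “wannabe” with their standard error (SE). Each call was also repeated in 8 fits that each left out 1 library of the 8 male libraries, and “held in 8 of 8 fits” refers to these. Where a fit left a single “wannabe” library, that library is assumed to vary as the other groups do.

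The sorted markers followed the labels. *Foxp3*, on chromosome X of GRCm38 from 7573644 to 7595245, had 28381, 29816 and 36405 normalized counts in rescued Treg cells and 2762 and 3273 in “wannabes”. The source of the counts in “wannabes” was not tested. The groups did not overlap, and the level was higher in rescued Treg cells (log2 fold change 3.39, SE 0.22, adjusted p = 6.25e-05). *Ccdc22*, which overlaps *Foxp3* on the opposite strand, was also higher, with 4428, 4137 and 4530 against 1678 and 2674 normalized counts (log2 fold change 1.00, adjusted p = 0.0306), and whether counting used the strand is not given in the sources used here. *Thy1*, whose Thy1.1 form the cassette encodes, had 1407, 1194 and 1308 normalized counts in rescued Treg cells and 6430 and 10717 in “wannabes”. Rescued libraries were thus at the level of control Treg cells for *Thy1* (1352 to 1531) and “wannabes” stood apart (log2 fold change −2.72, SE 0.22, adjusted p = 0.000202). GFP and Thy1.1 defined the sort, so these genes check the labels. Against control Treg cells, 2.3% of tested genes were called, 1.43% higher and 0.864% lower in rescued Treg cells, and *Foxp3* was among the former (log2 fold change 2.18, adjusted p = 0.000393).

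In all, 2105 genes, 14.1% of those tested, were called, of which 1499 (10.0% of those tested) were higher and 606 (4.06%) lower in rescued Treg cells. Rescued and “wannabe” libraries did not overlap for any called gene, but neither did they for 22.0% of all tested genes in the higher and 20.7% in the lower direction. Among called genes, 1259 were more than 2-fold higher and 213 more than 2-fold lower, and the median size of a called change was 1.35 on the log2 scale. Of the called genes, 71.2% were higher. This split moved with the base composition of the transcript start. Among the sixth of genes with the most GC-rich first 500 transcript bases (65.6 to 85.8% GC), 22.7% were called higher and 1.3% lower, with a median log2 fold change of 0.64. In the sixth with the lowest GC content (27.8 to 49.6%), 3.1% were called higher and 2.1% lower, with a median of 0.03. In the GC-rich sixth, the median deviation of a gene from its mean over the 8 libraries was −0.51 and −0.39 on the log2 scale in the “wannabe” libraries, 0.11 to 0.31 in the rescued and 0.01 to 0.14 in the control libraries. A fit with an offset for GC content and transcript length, chosen after seeing the data and called the corrected fit below, gave 1240 genes higher and 1247 lower, a share of 49.9% higher, and shifted the median of all genes by −0.10. In the GC-rich sixth it called 13.1% higher and 11.9% lower, and in the next sixth 12.2% higher and 17.6% lower, against 17% and 4.4% without the offset, so that many of its added lower calls were in GC-rich genes. It shared 1102 higher and 474 lower calls with the fit without the offset. The part of base composition in the changes of single genes was not tested, and corrected values are given for the marker genes and for many of the other named genes.

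**Figure D1:**
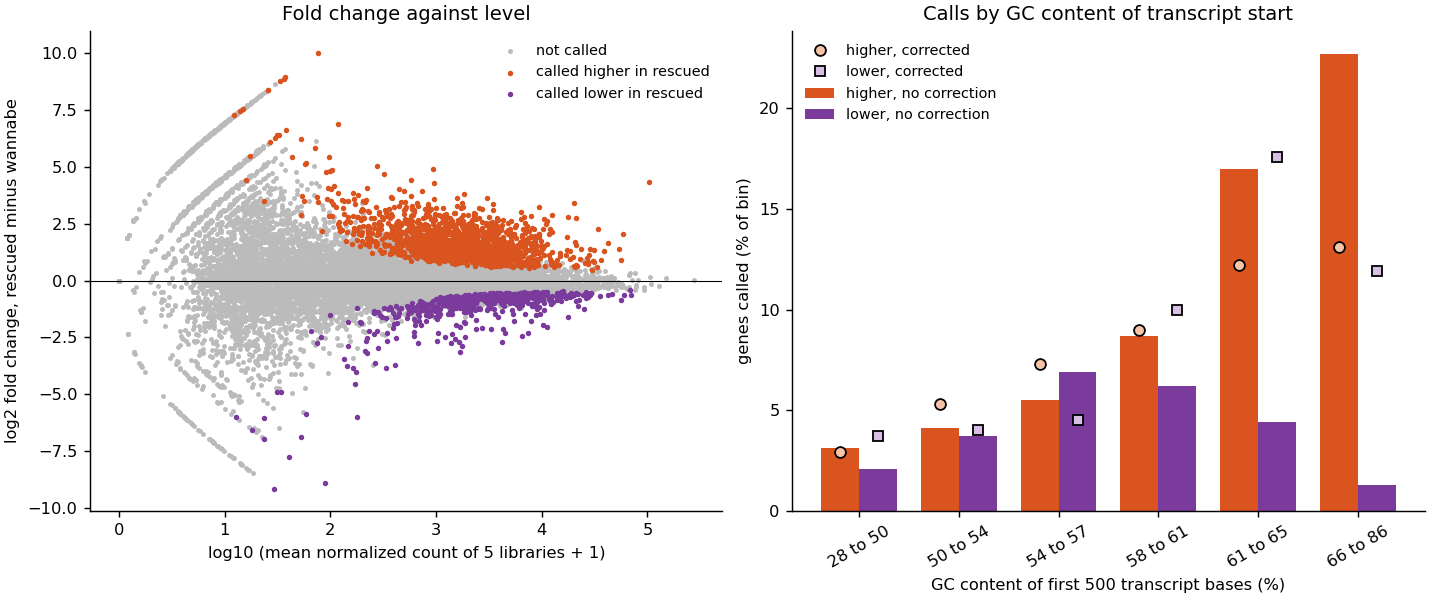
Left, each point is a gene, with the log10 mean normalized count of the 5 libraries (plus 1) on the x axis and the log2 fold change of rescued over “wannabe” on the y axis. Right, the percentage of genes called higher (orange) and lower (purple) in 6 bins of GC content of the first 500 transcript bases, as bars without and as symbols with the correction for GC content and length; the share called higher climbs to 22.7% in the GC-richest bin without correction and is 13.1% there with it, while the share called lower there is 1.3% without and 11.9% with correction.

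The counts of list members below are to be read against the 10.0% of all genes tested that were called higher and the 4.06% called lower. Counts of 1 to 3 members in a direction, as in the BCL-2, TNF receptor, CD28, nucleotide and amino acid transporter lists, are few and are given as counts only. Of the named genes described below, 190 were tested, 128 were called and 112 of these were also called in the corrected fit.

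The marker genes given for this comparison separated the groups in every library. They were picked for it and *Foxp3* is tied to the sort, so their separation is not an independent finding. *Hif1a*, on chromosome 12 from 73901375 to 73947530, encodes the oxygen-regulated subunit of hypoxia-inducible factor 1. It had 18653, 20114 and 18996 normalized counts in rescued Treg cells and 3033 and 2226 in “wannabes”. Every rescued library was thus several-fold above both “wannabe” libraries, and control Treg cells lay between them at 9554 to 11435. The log2 fold change was 2.87 (SE 0.19, adjusted p = 6.25e-05), and 1.84 in the corrected fit.

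*Ndfip1* encodes an adaptor that activates Itch and related ubiquitin ligases and limits T cell activation. Its normalized counts were 39330, 31593 and 24750 in rescued Treg cells against 5261 and 4179 in “wannabes”, with 15121 to 15641 in control Treg cells. The log2 fold change was 2.76 (SE 0.21, adjusted p = 0.000202; corrected 2.06). *Klrg1*, an inhibitory receptor of terminally differentiated lymphocytes and of a subset of activated Treg cells, had 9657, 12589 and 14210 normalized counts against 2069 and 1367 (log2 fold change 2.82, SE 0.25, adjusted p = 0.000233; corrected 2.94). *Tcf7* encodes TCF-1, a factor of naive and memory-like T cells, and moved the other way. It had 5197, 5508 and 4174 normalized counts in rescued Treg cells and 18829 and 22251 in “wannabes”, with control Treg cells between them at 9365 to 10339 (log2 fold change −2.05, SE 0.16, adjusted p = 0.000202; corrected −2.36). The calls of *Foxp3*, *Hif1a*, *Ndfip1*, *Klrg1* and *Tcf7* held in 8 of 8 fits and in the corrected fit.

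**Figure D2:**
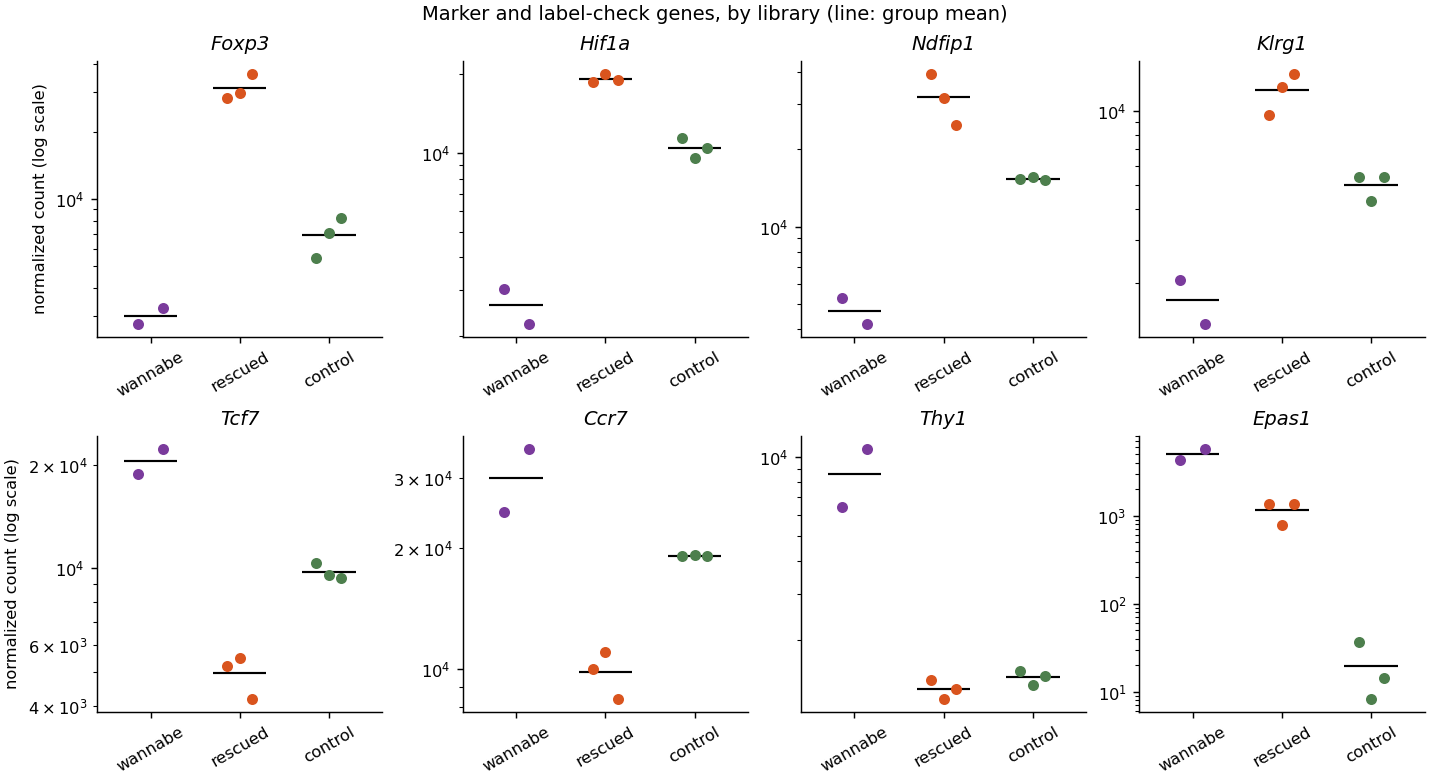
Normalized count (log scale) of 8 genes in each library of “wannabes” (purple), rescued Treg (orange) and control Treg cells (green); lines are group means. Rescued libraries lie above both “wannabe” libraries for *Foxp3*, *Hif1a*, *Ndfip1* and *Klrg1* and below them for *Tcf7*, *Ccr7*, *Thy1* and *Epas1*.

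Part of the Treg signature was higher in rescued Treg cells, while most of its members were not called. Of 31 signature genes tested, 10 were called higher, 1 lower and 20 were not called, with a median log2 fold change of 0.38 against 0 over all genes tested. The list was chosen with earlier results of these data known, so its counts are a description. *Foxp3* is tied to the sort, and *Klrg1* and *Ndfip1* were given as marker genes, so these members add no independent result. Besides *Foxp3*, *Klrg1* and *Ndfip1*, the genes called higher were *Tnfrsf9*, *Lrrc32*, *Ikzf2*, *Itgae*, *Ctla4*, *Tnfrsf1b* and *Icos*. *Tnfrsf9*, which encodes the costimulatory receptor 4-1BB, had 11298, 14568 and 13992 normalized counts against 3416 and 3671 (log2 fold change 1.91, SE 0.17, adjusted p = 0.000233). *Lrrc32* encodes GARP, which anchors latent TGF-β on the Treg cell surface, and had 13892, 13900 and 18260 against 3083 and 6916 normalized counts (log2 fold change 1.62, SE 0.31, adjusted p = 0.0055). *Ctla4*, the inhibitory receptor that competes with CD28, had 29426, 28967 and 26248 against 15860 and 13866 normalized counts (log2 fold change 0.92, SE 0.15, adjusted p = 0.00253). These 3 calls held in 8 of 8 fits and in the corrected fit, and *Lrrc32* was at 2.27 without “wannabe” replicate 2.

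Other members of the signature were less secure. *Ikzf2*, which encodes Helios, differed by 1.03 (adjusted p = 0.0352) and was not called without rescued replicate 3 (log2 fold change 0.77), “wannabe” replicate 2 (0.73) or control replicate 1. *Itgae*, the αE integrin CD103 that binds E-cadherin, differed by 1.00 (adjusted p = 0.0188) and was not called without rescued replicate 1 (0.92) or “wannabe” replicate 1 (0.61). *Icos*, a costimulatory receptor, and *Tnfrsf1b*, which encodes TNF receptor 2, differed by 0.59 and 0.79 and were called in 4 and 2 of 8 fits, and *Icos* was not called in the corrected fit. *Cish*, a feedback inhibitor induced by IL-2, was the member called lower, with 13512, 17034 and 16230 against 22766 and 34728 normalized counts (log2 fold change −0.88, adjusted p = 0.0126), a call that was lost without “wannabe” replicate 2. The number called higher was 7 to 12 over the 8 fits, and the number called lower was 4 without “wannabe” replicate 1.

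Several defining Treg genes were not called. *Il2ra*, the α chain of the IL-2 receptor, had 11906, 14384 and 17659 normalized counts in rescued Treg cells and 11184 and 12623 in “wannabes”, which overlap (log2 fold change 0.30, SE 0.17, adjusted p = 0.288). *Tnfrsf18*, which encodes GITR, had a log2 fold change of 0.26 (SE 0.24), *Tnfrsf4*, which encodes OX40, of 0.01 (SE 0.23), and the inhibitory receptor gene *Tigit* of 0.04 (SE 0.20). In the corrected fit *Tnfrsf18* was called higher, at 0.67 (adjusted p = 0.0283). The normalized counts of *Tigit* were 7678 to 9766 in rescued Treg cells and 7075 and 9776 in “wannabes”, both above the 2685 to 3636 of control Treg cells.

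Of 23 suppressor effector genes tested, 5 were called higher and 2 lower, against 10.0% and 4.06% of all genes, with a median log2 fold change of 0.34. *Gzmb*, which encodes the cytotoxic protease granzyme B, had 14164, 15872 and 9855 normalized counts in rescued Treg cells, 5115 and 7045 in “wannabes” and 1992 to 2961 in control Treg cells. The order was thus rescued, “wannabe”, control, with no overlap between the groups (log2 fold change 1.13, SE 0.25, adjusted p = 0.0124), and the call was lost without “wannabe” replicate 1. *Itgb8*, the β8 integrin that activates TGF-β, had 114, 625 and 583 against 75.2 and 111 normalized counts, so that rescued replicate 1 was close to “wannabe” replicate 2. Its call (log2 fold change 2.24, adjusted p = 0.0368) held in 2 of 8 fits and was lost in the corrected fit (1.42). The genes called lower were *Lgals3*, which encodes galectin-3, and *Pdcd1*, which encodes PD-1, with log2 fold changes of −1.10 and −0.74 (adjusted p = 0.0267 and 0.00847). They were called in 5 and 7 of 8 fits, and neither was called without rescued replicate 2. Without “wannabe” replicate 1, 2 genes of this list were called higher, and without rescued replicate 3, 3.

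*Il10*, a cytokine that dampens inflammation, had 2114, 2689 and 2816 normalized counts in rescued Treg cells and 1759 and 1997 in “wannabes” (log2 fold change 0.44, SE 0.24, adjusted p = 0.261). *Entpd1* encodes CD39, which degrades extracellular ATP, and had 4043, 5134 and 5839 against 3973 and 3959 (log2 fold change 0.34, SE 0.19, adjusted p = 0.287). For both genes the rescued libraries were above the “wannabe” libraries by less than the test could separate, while control Treg cells were lower than both, at 332 to 493 for *Il10* and 2264 to 2761 for *Entpd1*. *Nt5e*, which encodes the adenosine-producing CD73, differed by 0.24 (adjusted p = 0.305) and reversed to −0.58 (adjusted p = 0.0163) in the corrected fit.

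Genes that Treg cells normally keep low were lower in rescued Treg cells for 5 of 16 tested and higher for 1, with a median log2 fold change of −0.41. Besides *Tcf7*, the genes called lower were *Dapl1*, *Id2*, *Cd40lg* and *Bcl2*. *Id2*, an inhibitor of E proteins that marks effector cells, had 5088, 6193 and 3861 normalized counts against 15651 and 13582 in “wannabes” (log2 fold change −1.53, SE 0.21, adjusted p = 0.000704). It was nevertheless above control Treg cells, at 1697 to 2107. *Cd40lg* encodes CD40 ligand, the helper signal to B cells and dendritic cells, and had 1302, 1360 and 944 against 2989 and 2714 (log2 fold change −1.25, SE 0.23, adjusted p = 0.00438). *Dapl1* had 118, 123 and 48.7 against 702 and 284 (log2 fold change −2.35) and was not called without “wannabe” replicate 1 (−1.56). *Satb1*, a chromatin organizer that Foxp3 represses, was called in the other direction, at a log2 fold change of 1.09 (adjusted p = 0.00824). *Il7r* and *Pde3b* were not called (log2 fold changes 0.27 and −1.18), but *Pde3b* was called lower in the corrected fit (−1.99, adjusted p = 0.0469).

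Of 15 genes of resting T cells and homing, 3 were called lower and 3 higher. *Ccr7*, the receptor that guides cells into the T cell zone of lymph nodes, had 9995, 11024 and 8385 normalized counts in rescued Treg cells and 24590 and 35407 in “wannabes”. Both “wannabe” libraries were thus more than 2-fold above each rescued library (log2 fold change −1.61, SE 0.18, adjusted p = 0.000344), and control Treg cells were between, at 19060 to 19266. *Foxp1* was lower by a smaller margin (log2 fold change −0.61, adjusted p = 0.0207; called in 5 of 8 fits). *Itgb7*, the β7 integrin subunit of gut-homing and epithelium-binding receptors, was higher, with 82617, 78201 and 91055 against 14707 and 26410 (log2 fold change 2.03, SE 0.23, adjusted p = 0.000372). *Foxo1* was called higher at 0.76 but had a corrected value of 0.06, and *S1pr1*, the exit receptor of lymph nodes, was not called (−0.15).

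**Figure D3:**
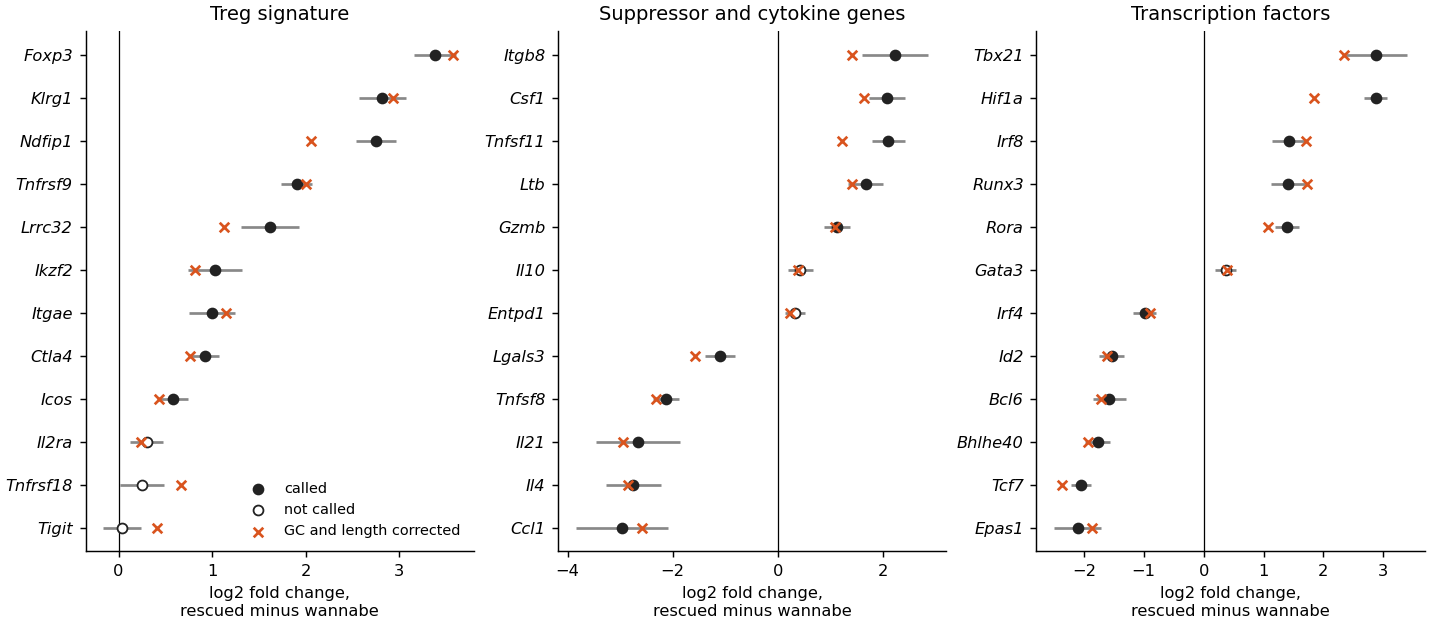
Log2 fold change of rescued over “wannabe” for 36 genes in 3 groups; bars are standard errors, filled points are called and open points not called, and crosses are the values of the fit corrected for GC content and length. *Foxp3*, *Klrg1* and *Ndfip1* lie to the right, *Il4*, *Il21* and *Tcf7* to the left, and *Il2ra*, *Tigit* and *Il10* close to 0.

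By count and not by share, cytokine genes formed the list with the most calls in the lower direction in the fit of all 8 male libraries. Of 27 effector cytokine genes tested, 9 were called lower and 3 higher, with a median log2 fold change of −1.11. *Il4*, the type 2 helper cytokine that drives IgE, had 659, 307 and 299 normalized counts in rescued Treg cells and 2609 and 3077 in “wannabes”. Rescued Treg cells thus had less *Il4* RNA than “wannabes” (log2 fold change −2.75, SE 0.52, adjusted p = 0.00525) but more than control Treg cells, whose libraries had at most 10.4. In bulk samples, fewer cells that express a gene and less RNA per cell cannot be told apart. *Il21*, the cytokine of follicular helper T cells, had 55.7, 29.8 and 122 against 502 and 375 (log2 fold change −2.66, SE 0.81, adjusted p = 0.0496), a call that held in 3 of 8 fits, with −3.35 without rescued replicate 3. *Tnfsf8*, which encodes CD30 ligand, had 1996, 2289 and 1166 against 7678 and 8260 (log2 fold change −2.13, SE 0.25, adjusted p = 0.000395) and held in 8 of 8 fits, as did *Il4* and *Cd40lg*. *Ccl1* had 144 normalized counts in one “wannabe” library and 1045 in the other and was called in 2 of 8 fits, with a log2 fold change of −2.97, −3.79 without “wannabe” replicate 1 and −0.97 without “wannabe” replicate 2. *Il13*, which the naming rule did not pick because of its low level, was called as well, with a mean of 97.6 in “wannabes” and 0.31 in rescued Treg cells.

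The cytokine genes called higher in rescued Treg cells act on other cells. *Csf1*, the growth factor of macrophages, had 3944, 3991 and 5770 normalized counts against 663 and 1495 (log2 fold change 2.08, SE 0.34, adjusted p = 0.00228) and at most 662 in control Treg cells. *Tnfsf11* encodes RANKL and had 2284, 2394 and 1540 against 492 and 470 (log2 fold change 2.11, SE 0.31, adjusted p = 0.00118; corrected 1.22). *Ltb* encodes lymphotoxin β, which organizes lymphoid tissue, and had 23904, 33774 and 27250 against 4947 and 12738 (log2 fold change 1.68, SE 0.33, adjusted p = 0.0063). These 3 calls held in 8 of 8 fits and in the corrected fit, and without “wannabe” replicate 2 *Csf1* was at 2.74 and *Ltb* at 2.47. *Ifng* and *Il17a*, cytokines of type 1 and type 17 helper cells, were not called (log2 fold changes 0.65 with SE 0.54 and −2.84 with SE 2.40). *Il17a* had counts in a single rescued and a single “wannabe” library, and 0, 10.9 and 18.9 normalized counts in control Treg cells. Its log2 fold change changed sign over the 8 fits, from −7.93 to 5.08. *Il2* had 0.95, 2.59 and 2.75 normalized counts against 44.2 and 22.6, which do not overlap but were not called (adjusted p = 0.127). The number of cytokine genes called higher was 3 in each of the 8 fits, and the number called lower was 4 without rescued replicate 1, 5 without rescued replicate 2 and 5 without “wannabe” replicate 2.

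Lineage transcription factors moved in both directions. Of 30 tested, 8 were called higher and 4 lower, and the 4 called lower held their calls in 8 of 8 fits and in the corrected fit. *Bhlhe40*, a regulator of inflammatory cytokine production, had 2294, 3396 and 2756 normalized counts in rescued Treg cells and 8467 and 10662 in “wannabes” (log2 fold change −1.76, SE 0.21, adjusted p = 0.0004). *Bcl6*, the factor of follicular helper cells, had 417, 343 and 384 against 875 and 1396 (log2 fold change −1.57, SE 0.28, adjusted p = 0.00352). *Irf4*, which is induced by T cell receptor signalling and needed by effector Treg cells, had 2409, 2650 and 2085 against 5026 and 4411 (log2 fold change −0.99, SE 0.19, adjusted p = 0.00565), and *Id2* is given above.

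*Tbx21* encodes T-bet, the type 1 helper factor that a subset of Treg cells also uses. It had 1163, 1704 and 1986 normalized counts in rescued Treg cells, 108 and 331 in “wannabes” and 248 to 477 in control Treg cells. Rescued libraries were thus above all libraries of both other groups (log2 fold change against “wannabes” 2.88, SE 0.51, adjusted p = 0.00354; corrected 2.35; 2.29 without “wannabe” replicate 1 and 3.86 without “wannabe” replicate 2). *Irf8*, *Runx3* and *Rora* were higher as well, with log2 fold changes of 1.43, 1.41 and 1.39, and all 4 held in 8 of 8 fits and in the corrected fit. *Runx1*, *Ikzf3* and *Ahr* were called higher at 1.09, 1.13 and 1.02, and *Ikzf2* is given above. *Gata3*, the type 2 helper factor, had 14253, 14746 and 18153 against 10875 and 13472 and was not called (log2 fold change 0.37, SE 0.18, adjusted p = 0.2). *Maf* was not called either (log2 fold change 0.46, SE 0.32).

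The paired hypoxia-inducible factor genes lay in opposite directions. *Epas1* encodes HIF-2α, and had 1362, 789 and 1355 normalized counts in rescued Treg cells, 4302 and 5769 in “wannabes” and 8.21 to 36.5 in control Treg cells. Rescued Treg cells were thus lower than “wannabes” (log2 fold change −2.11, SE 0.39, adjusted p = 0.00463; corrected −1.86) and far above control Treg cells (log2 fold change against control 5.92, adjusted p = 0.000393), whereas *Hif1a* was highest in rescued Treg cells. Of 17 hypoxia-inducible factors and targets tested, 5 were called higher and 2 lower, and the median log2 fold change was −0.23. The targets called higher were *Ero1l*, an oxidase of the endoplasmic reticulum, *Pdk1*, which closes pyruvate entry into mitochondria, and *P4ha1*, a collagen prolyl hydroxylase. *Pdk1* had 4886, 3921 and 3460 against 1003 and 1061 normalized counts, and the log2 fold changes of the 3 targets were 2.16, 1.99 and 1.86 (corrected 1.97, 1.30 and 1.84). *Vhl*, the ubiquitin ligase subunit that degrades both factors, was called at 1.03 (adjusted p = 0.0114), but not in the corrected fit, where 4 members were called higher. *Hif1an*, an oxygen sensor that blocks them, was called lower (−0.82, adjusted p = 0.0304) in 5 of 8 fits and not in the corrected fit, and *Egln3*, another oxygen sensor and target, was not called (0.47; corrected −0.21).

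Of 20 glycolysis genes tested, many of which are HIF-1 targets, 1 was called higher and 3 lower, with a median log2 fold change of −0.29. The gene called higher was *Slc2a3*, a glucose transporter, with 6819, 8551 and 11321 normalized counts against 2689 and 3735 (log2 fold change 1.47, SE 0.24, adjusted p = 0.00197). The glycolytic enzyme genes *Eno1* (−0.71), *Aldoa* (−0.56) and *Pkm* (−0.40) were called lower, in 7, 5 and 1 of 8 fits. Without rescued replicate 2 no gene of the list was called lower. *Slc2a1*, *Hk2* and *Ldha* were not called (log2 fold changes −0.25, 0.82 and −0.36).

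Genes of a list of ubiquitin ligase brakes on T cell activation were called in 1 direction only in the fit without the offset. Its members were chosen with earlier results of these data known, and they include the marker gene *Ndfip1*. Of 15 tested, 7 were called higher and 0 lower, with a median log2 fold change of 1.14. By DESeq2 and at an unadjusted p under 0.05, 0 were lower as well. The number called higher was 7 or 8 in each of the 8 fits. In the corrected fit 6 were called higher and 2 lower, with a median of 0.68. *Socs1*, which blocks signalling of JAK kinases and forms a ubiquitin ligase, had 3661, 1699 and 1410 normalized counts in rescued Treg cells and 140 and 442 in “wannabes” (log2 fold change 2.96, SE 0.58, adjusted p = 0.00628; corrected 2.35), which was 2.35 without “wannabe” replicate 1 and 3.97 without “wannabe” replicate 2. *March5*, a ubiquitin ligase of the mitochondrial membrane, had 2411, 763 and 885 against 251 and 163 (log2 fold change 2.71, SE 0.50, adjusted p = 0.00452; corrected 1.82; 1.99 without rescued replicate 1). *Peli1*, which limits T cell activation, had 10046, 5036 and 6921 against 3415 and 1720 (log2 fold change 1.51, SE 0.35, adjusted p = 0.0147; not called without “wannabe” replicate 2). *Cbl*, *Stub1* and *Ndfip2*, the relative of *Ndfip1*, were called at 1.45, 1.36 and 1.14. *Itch*, the ligase that Ndfip1 activates, was not called (−0.19, SE 0.19), and *Cblb* was not called (−0.05) but was lower in the corrected fit (−0.60, adjusted p = 0.0293).

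In the IL-2 receptor and STAT5 list, 5 of 17 genes were called higher and 2 lower. Receptor subunits were close between the groups, with *Il2ra* as given above and *Il2rb*, the β chain, at a log2 fold change of −0.13 (SE 0.20). *Jak1*, the kinase that binds the β chain, had 38144, 36346 and 38641 normalized counts in rescued Treg cells and 13784 and 15205 in “wannabes” (log2 fold change 1.38, SE 0.16, adjusted p = 0.0004). Control Treg cells overlapped with the rescued libraries, at 27974 to 39020. *Pim1*, a kinase gene induced by STAT5, and *Socs3*, a feedback inhibitor, were higher by 1.80 and 1.56 (adjusted p = 0.00311 and 0.014; corrected 1.21 and 0.99), and both held in 8 of 8 fits and in the corrected fit, with *Socs3* at 2.29 without “wannabe” replicate 2. *Jak3*, which binds the common γ chain, was called at 0.90. *Cish*, the feedback inhibitor induced by IL-2 that is given above, went the other way and was called lower (−0.88). *Bcl2*, a survival gene, was lower, with 7677, 8960 and 9595 against 15038 and 20198 normalized counts (log2 fold change −1.01, SE 0.17, adjusted p = 0.00234; corrected −1.84), and *Stat5a* was not called (−0.51, adjusted p = 0.134) but was lower in the corrected fit (−0.60, adjusted p = 0.0193). The number called lower was 5 without “wannabe” replicate 1 and 1 without “wannabe” replicate 2.

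**Figure D4:**
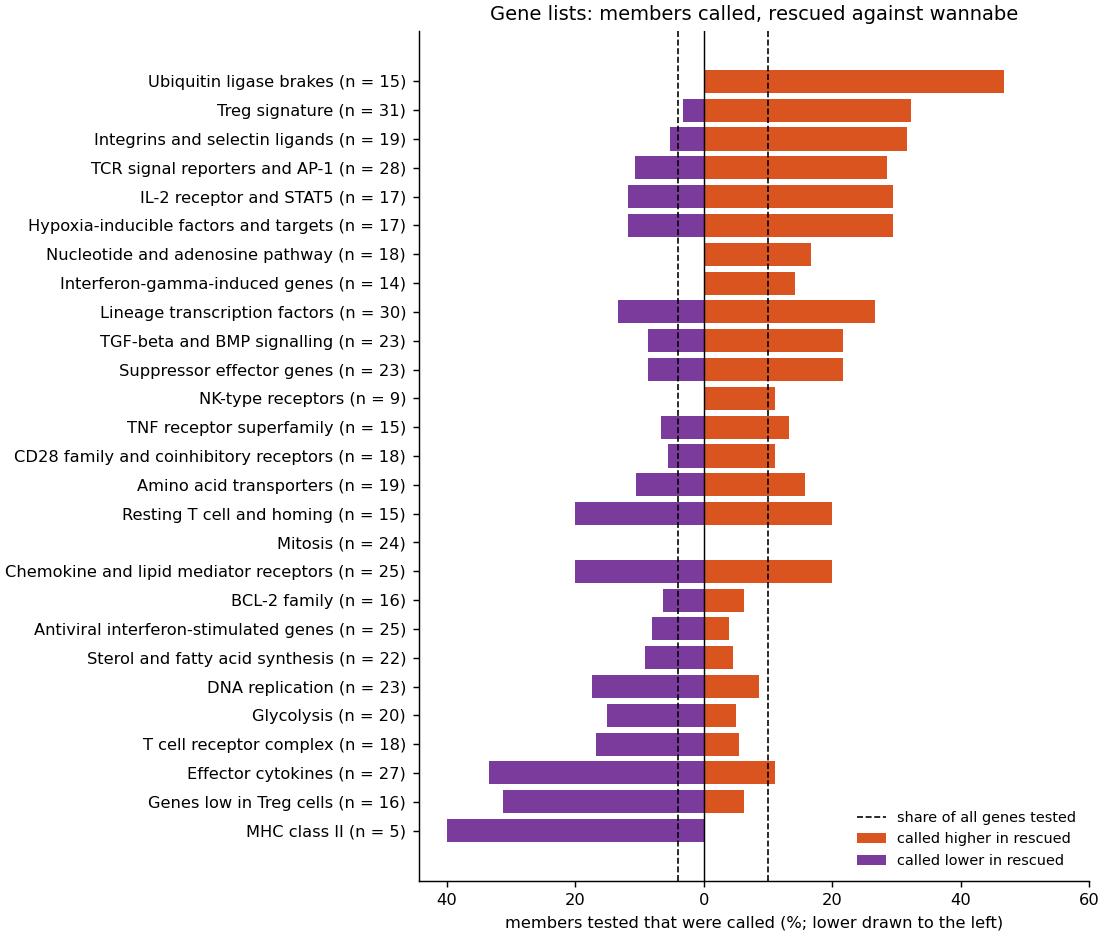
Percentage of tested members of 27 gene lists that were called higher (orange, to the right) or lower (purple, to the left) in rescued Treg cells against “wannabes”; n is the number tested and dashed lines are the shares over all genes tested, 10.0% higher and 4.06% lower. The ubiquitin list has the longest bar to the right with none to the left, and effector cytokines, genes low in Treg cells and MHC class II (2 of 5 tested) have long bars to the left.

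Receptors for chemokines and lipid mediators were called in both directions. Of 25 tested, 5 were called higher and 5 lower. The prostaglandin E2 receptor gene *Ptger4* had 8491, 5519 and 4746 normalized counts in rescued Treg cells and 823 and 1463 in “wannabes” (log2 fold change 2.45, SE 0.31, adjusted p = 0.000543). *Ccr3*, a receptor for eotaxins, had 947, 784 and 483 against 89.3 and 44.2 (log2 fold change 3.46, SE 0.55, adjusted p = 0.00179). *Ccr10*, a skin-homing receptor, had 1049, 301 and 733 against 30.1 and 113 (log2 fold change 3.28), with 2.61 and no call without “wannabe” replicate 1 and 4.48 without “wannabe” replicate 2. *Ltb4r1*, a leukotriene B4 receptor, and *Ccr2*, an inflammatory chemokine receptor, were higher by 1.96 and 1.90. Lower were *Ccr7*, *Ptgir*, the prostacyclin receptor gene, *Cxcr6*, a receptor of effector cells in tissues, and *Gpr183*, an oxysterol receptor. *Cxcr6* had 3723, 5110 and 3088 against 9827 and 8726 normalized counts (log2 fold change −1.22, SE 0.24, adjusted p = 0.0059), *Ptgir* differed by −1.38, and *Gpr183* by −0.75 with its call held in 4 of 8 fits. The fifth, *Ptgdr2*, a prostaglandin D2 receptor gene that the naming rule did not pick because of its low level, had means of 2.28 and 72.2. *Ccr4*, *Ccr8*, *Cxcr3* and *Cxcr5* were not called, and *Cxcr3* (log2 fold change 1.32, adjusted p = 0.0585) and *Cxcr5* (0.72) passed the threshold in the corrected fit, at 1.70 and 0.98. Without rescued replicate 2 or “wannabe” replicate 2, 3 genes of the list were called lower.

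Of 19 integrins and selectin ligand genes, 6 were called higher and 1 lower, against 10.0% and 4.06% of all genes tested, with a median log2 fold change of 0.68, and 4 were called higher and 2 lower in the corrected fit (median 0.13). *Itgb1*, the β1 integrin subunit, had 72633, 49270 and 53526 normalized counts in rescued Treg cells, 19941 and 17968 in “wannabes” and 18679 to 22668 in control Treg cells, so that rescued libraries stood above both other groups (log2 fold change 1.63, SE 0.19, adjusted p = 0.000395). *Epcam*, an epithelial adhesion molecule, on chromosome 17 from 87635979 to 87651129, had 665, 325 and 365 against 16.9 and 10.8 (log2 fold change 5.01, SE 0.61, adjusted p = 0.000452; corrected 4.27). *Gcnt1*, an enzyme that builds selectin ligands, was lower, with 1207, 531 and 1007 against 2936 and 3562 (log2 fold change −1.83, SE 0.31, adjusted p = 0.00278). *Cd44* was not called (0.12, SE 0.18). Of 9 receptor genes of the NK cell type, *Klrg1* was called higher and 0 were called lower by edgeR, while DESeq2 and an unadjusted p under 0.05 each gave 1 lower.

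Of 15 TNF receptor family genes, 2 were called higher (*Tnfrsf9* and *Tnfrsf1b*) and 1 lower (*Tnfrsf25*, −0.70, called in 1 of 8 fits), near the 10.0% and 4.06% of all genes. Without “wannabe” replicate 2, 4 were called higher. Of 18 genes of the CD28 family and of coinhibitory receptors, *Ctla4* and *Icos* were called higher and *Pdcd1* lower, also near those shares. *Lag3*, an inhibitory receptor that binds MHC class II, had 494, 586 and 465 normalized counts in rescued Treg cells and 399 and 839 in “wannabes”, which enclose them (log2 fold change −0.27, SE 0.42).

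Among 28 genes of T cell receptor signalling and AP-1, 8 were called higher and 3 lower. *Dusp4*, a phosphatase gene of the MAP kinase pathway, had 1937, 1214 and 1038 normalized counts in rescued Treg cells and 260 and 246 in “wannabes” (log2 fold change 2.46, SE 0.31, adjusted p = 0.000558), with control Treg cells at 1341 to 1570. Of the AP-1 subunits in the list, *Jun* and *Jund* were called higher, as was the phosphatase *Dusp1*, and *Fos*, *Fosb*, *Fosl1*, *Fosl2*, *Junb* and *Batf* were not called. *Jund* had 11156, 1669 and 1452 normalized counts against 292 and 472 (log2 fold change 3.64, SE 0.82, adjusted p = 0.0129; corrected 1.88). Rescued replicate 1 was far above replicates 2 and 3, and the log2 fold change was 2.03 without it. *Jun* had 3239, 2916 and 1164 against 184 and 626 and *Dusp1* 4753, 1715 and 1356 against 337 and 450, with log2 fold changes of 2.59 and 2.73 (corrected 2.73 and 2.08). *Jun* was at 1.96 without “wannabe” replicate 1 and 3.68 without “wannabe” replicate 2, and *Dusp1* at 1.96 without rescued replicate 1. The calls of *Jund* and *Jun* were lost without “wannabe” replicate 1, and without it 5 members of the list were called higher. The subunits of the alternative NF-κB pathway, *Relb* and *Nfkb2*, were called higher at 2.39 and 1.45 and *Egr1* and *Nfatc2* at 1.54 and 0.91. *Nfkb1*, the subunit of the classical pathway, was lower, with 4550, 4355 and 3807 against 8237 and 7555 (log2 fold change −0.90, SE 0.16, adjusted p = 0.00394; corrected −1.54). *Myc* and *Dusp6* were called lower at −0.78 and −0.74, in 4 and 2 of 8 fits, and without rescued replicate 1, rescued replicate 3, “wannabe” replicate 2 or control replicate 3, 1 member of the list was called lower. *Egr2*, *Nr4a1* and *Cd69*, which report recent antigen signalling, were not called (log2 fold changes −0.61, −0.33 and 0.39), although *Nr4a1* was lower in the corrected fit (−0.63, adjusted p = 0.0313).

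Interferon-induced genes were called at close to the 14.1% of all genes tested, with 3 of 25 antiviral genes and 2 of 14 interferon-γ genes. Of the antiviral genes, *Oasl2* and *Oas3* were called lower (log2 fold changes −2.22 and −1.54, in 4 and 3 of 8 fits), and *Oasl2* was at −1.63 without “wannabe” replicate 2. *Oasl1*, which the naming rule did not pick because of its low level, was called higher, with a mean of 53.7 normalized counts in rescued Treg cells and 0 counts in both “wannabe” libraries. *Isg15* and *Irf7* were not called. Without rescued replicate 1, rescued replicate 2 or “wannabe” replicate 2, no antiviral gene was called lower. Of the genes induced by interferon-γ or carrying its signal, *Socs1* and *Ifngr1*, the receptor chain, were called higher (*Ifngr1* at 0.70, in 3 of 8 fits). None was called lower by edgeR, by DESeq2 or at an unadjusted p under 0.05.

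Cell cycle genes had medians below 0, and libraries of the same group were far apart. Of 24 mitosis genes, 0 were called by edgeR, while DESeq2 called 1 lower and at an unadjusted p under 0.05 there were 1 higher and 2 lower, with a median log2 fold change of −0.90. Of the 8 fits, 1 called a member higher (without “wannabe” replicate 1) and 3 called 1 lower (without “wannabe” replicate 2, control replicate 2 or control replicate 3). *Cdk1*, the kinase that starts mitosis, had 2307, 1006 and 1076 normalized counts in rescued Treg cells and 4534 and 1780 in “wannabes”. The “wannabe” libraries thus differed more than 2-fold from each other, and rescued replicate 1 was above “wannabe” replicate 2. Summed over the list, the normalized counts were 80986, 40025 and 46969 against 125802 and 52171, and 13014 to 43938 in control Treg cells. *Mki67* differed by −0.17 (SE 0.57). Of 23 DNA replication genes, 4 were called lower and 2 higher. The members of the replicative helicase were divided, with *Mcm5*, *Mcm7*, *Mcm2* and *Mcm3* lower (log2 fold changes −0.98, −0.97, −0.83 and −0.78) and *Mcm6* higher (0.76). *Mcm2* had 8018, 6410 and 6436 against 12848 and 11882 normalized counts and its call held in 8 of 8 fits, whereas *Mcm3* was called in 2. *Mcm6* had 18087, 14594 and 14544 against 10060 and 8566, and its call was lost without rescued replicate 1 or “wannabe” replicate 2. The number of replication genes called lower was 1 without “wannabe” replicate 1 or rescued replicate 2 and 9 without “wannabe” replicate 2, so it rests on single libraries. *Cdt1*, which loads the helicase, was called higher (1.17) but not in the corrected fit (0.63), and there *Mcm7* and *Mcm3* were not called either, while *Pcna*, the sliding clamp, was called lower (−0.94 against −0.54, adjusted p = 0.0098) and 4 members in all were lower.

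**Figure D5:**
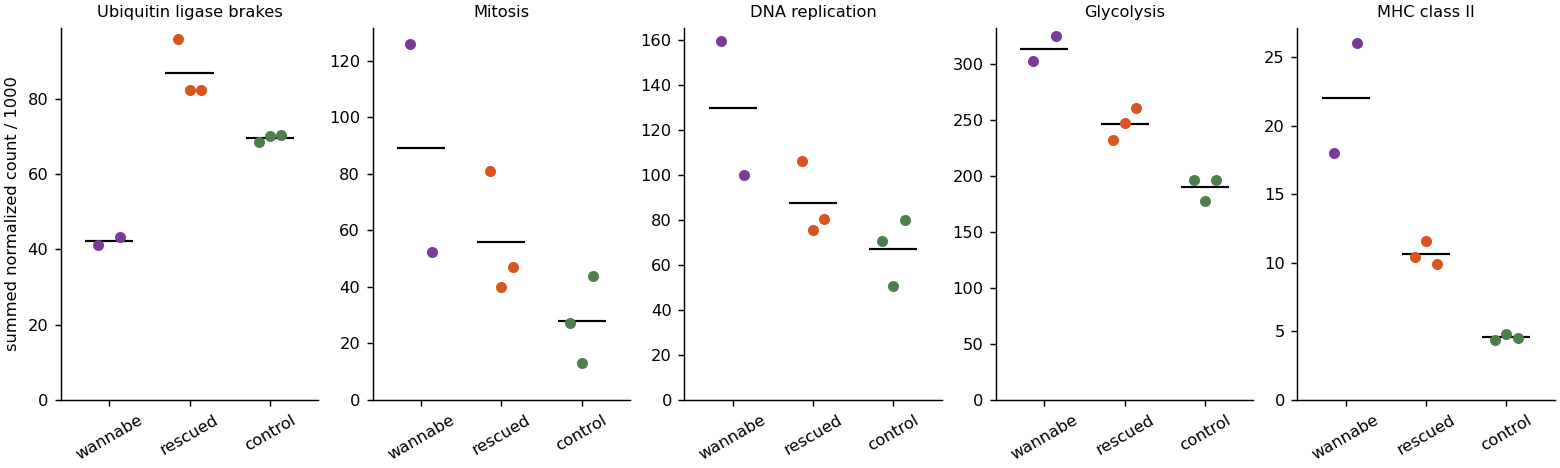
Summed normalized counts, divided by 1000 (y axis), over the members of 5 lists in each library of “wannabes”, rescued Treg and control Treg cells; lines are group means. Rescued libraries lie above both “wannabe” libraries for the ubiquitin list and below them for glycolysis and MHC class II, and overlap with them for mitosis and DNA replication.

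Metabolic genes differed one by one. Of 19 amino acid transporter genes, 3 were called higher and 2 lower, against 10.0% and 4.06% of all genes. *Slc1a5*, a glutamine transporter, had 14753, 7631 and 9743 normalized counts in rescued Treg cells and 1641 and 2438 in “wannabes” (log2 fold change 2.39, SE 0.29, adjusted p = 0.000441; corrected 2.7). *Slc7a8*, a transporter of neutral amino acids, had 6.61, 40.2 and 6.43 against 585 and 221, and at most 15 in control Treg cells (log2 fold change −4.52, SE 0.88, adjusted p = 0.00601; −3.65 and not called without “wannabe” replicate 1). The arginine transporter gene *Slc7a1* was lower (−0.73), and *Slc3a2*, the partner chain of several transporters, and the taurine transporter gene *Slc6a6* were higher (0.64 and 0.95, the former called in 1 of 8 fits and the latter not called in the corrected fit). No amino acid transporter was called lower without “wannabe” replicate 1. Of 22 genes of sterol and fatty acid synthesis, *Scd2* and *Fasn* were lower (−1.11 and −0.85, both called in 8 of 8 fits and in the corrected fit). *Insig1*, a sensor that holds back sterol synthesis, was called higher at 2.59 but not without either “wannabe” replicate or in the corrected fit (1.75), and was at 1.75 without rescued replicate 1, and *Sqle* was not called.

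Of 18 genes of nucleotide and adenosine handling, 3 were called higher and 0 lower, near the 10.0% and 4.06% of all genes tested, with 0 lower also by DESeq2 and at an unadjusted p under 0.05 and 2 lower in the corrected fit. *Art2b*, which ADP-ribosylates surface proteins such as the ATP receptor P2X7, had 1147, 2757 and 2928 normalized counts against 596 and 702 (log2 fold change 1.81, SE 0.38, adjusted p = 0.00919). *Cd38*, which degrades NAD, and *P2rx4*, an ATP-gated channel, were higher by 1.03 and 0.88 and were called in 2 and 4 of 8 fits. *P2rx7* was not called (−0.09, SE 0.32). Without rescued replicate 2, rescued replicate 3 or “wannabe” replicate 2, 1 member was called higher.

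In the TGF-β and BMP list, 5 of 23 genes were called higher and 2 lower, and 2 higher and 4 lower in the corrected fit, in which the median changed sign from 0.21 to −0.44. *Tgfbr3*, a co-receptor for TGF-β2 and inhibins, had 432, 649 and 456 normalized counts in rescued Treg cells and 3069 and 3685 in “wannabes”, with control Treg cells near the former at 791 to 1026 (log2 fold change −2.72, SE 0.25, adjusted p = 0.000233; corrected −3.36). *Furin*, a protease that activates pro-TGF-β and other precursors, had 726, 540 and 598 against 1286 and 2043 (log2 fold change −1.42, adjusted p = 0.006; not called without “wannabe” replicate 2). *Tgfbr1*, the signalling receptor, and *Smad3*, its effector, were called higher at 0.82 and 1.17, in 6 of 8 fits each, and *Bmp7* at 1.19 in 2 of 8. Of these 3 only *Tgfbr1* was called in the corrected fit, where *Smad3* was at 0.63 and *Bmp7* at 0.55. Without rescued replicate 3, 2 members of the list were called higher.

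Of 16 BCL-2 family genes, *Bcl2* was called lower and *Bbc3*, which encodes the death-promoting PUMA, higher, near the shares over all genes. *Bbc3* had 1041, 430 and 612 normalized counts against 101 and 229 (log2 fold change 2.07, SE 0.50, adjusted p = 0.0179), a call lost without rescued replicate 1 or “wannabe” replicate 1 and in the corrected fit (0.87). In the corrected fit 1 member was called higher and 4 lower, with a median log2 fold change of −0.45 against −0.23. *Mcl1* and *Bcl2l11* were not called (1.01 and −0.52, corrected 0.25 and −0.91), and *Bcl2l11*, which encodes BIM, was lower in the corrected fit (adjusted p = 0.00435).

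MHC class II genes were lower or not called. Of 10 listed, only 5 had enough counts to be tested, and *H2-Ab1* and *H2-Eb1* were not among them. Of 5 tested, 2 were called lower and 0 higher, with 0 higher also by DESeq2 and at an unadjusted p under 0.05. *H2-DMa*, a chaperone that loads peptides, had 3704, 4734 and 3587 normalized counts in rescued Treg cells, 10602 and 16507 in “wannabes” and 1408 to 2311 in control Treg cells (log2 fold change −1.76, SE 0.25, adjusted p = 0.000871). *H2-Oa* was called in 1 of 8 fits (−1.24, and −0.53 without “wannabe” replicate 2) and was not called in the corrected fit (−0.77). *Cd74*, the invariant chain, had 5814, 5734 and 5679 against 6042 and 6888 and was not called. *H2-Aa* and *Ciita* were not called.

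In the T cell receptor complex, 3 of 18 genes were called lower and 1 higher, with *Thy1* of the cassette among the former. *Cd4* had 14552, 16338 and 16802 normalized counts in rescued Treg cells, 31727 and 44987 in “wannabes” and 12792 to 14323 in control Treg cells (log2 fold change −1.27, SE 0.16, adjusted p = 0.000589). The groups with the *Cd4*creERT2 allele were thus both low and the group without it high, and the part of that allele was not tested. *Fyn*, a kinase of receptor signalling, was called higher (1.22) but not without “wannabe” replicate 2 or in the corrected fit (0.34). *Cd3e* and *Lck* were not called (−0.31 and −0.27), with 24354 to 27082 normalized counts of *Cd3e* in rescued Treg cells and 27581 and 35682 in “wannabes”. Without “wannabe” replicate 1, 5 members of the list were called lower.

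Among genes with a mean normalized count over 100, most of the largest changes were in genes of no list. Beside *Epcam*, the genes with the largest log2 fold changes upwards were *Rbpms2*, *Mmp9*, *Fam174b*, *Cdkn1c*, *Rfxap*, *Zfp599*, *Scand1*, *Kcnk6* and *Bloc1s4*, at 4.08 or more. *Mmp9*, a matrix protease, had 1181, 1455 and 1942 normalized counts in rescued Treg cells, 0 and 104 in “wannabes” and 103 to 249 in control Treg cells, with a log2 fold change of 4.88 and of 3.86 without “wannabe” replicate 1. *Rbpms2* had 66.1, 174 and 348 against 0.94 and 2.15. *Cdkn1c*, which encodes the cell cycle inhibitor p57, had 1094, 168 and 309 against 17.9 and 22.6. Rescued replicate 1 was the highest library for *Cdkn1c*, *Rfxap*, *Scand1*, *Fam174b* and *Bloc1s4*, at 288 to 2934 normalized counts, and the calls of these 5 genes held in 8 of 8 fits. Their corrected log2 fold changes were smaller, at 3.87, 3.54, 2.61, 4.24 and 3.37 in that order, against 4.69, 4.41, 4.26, 4.85 and 4.08, and *Kcnk6* was at 3.45 against 4.17. Without rescued replicate 1 they were 3.56, 3.29, 3.38, 4.20 and 3.12. *Zfp599* had 15365, 19944 and 462102 against 10793 and 5969, so that rescued replicate 3 set its log2 fold change of 4.31, which was 1.08 without that library, and the call held in 3 of 8 fits. DESeq2 gave no adjusted p for it. Among genes with a mean over 5000, *Rsrp1* had 18560, 9551 and 15528 against 1178 and 1965 (log2 fold change 3.21, SE 0.33, adjusted p = 0.000289; corrected 2.65). *Hnrnpab* had 21194, 4101 and 3975 against 1442 and 974, with a log2 fold change of 3.01 (corrected 2.14) and of 1.74 without rescued replicate 1, and its call was lost without “wannabe” replicate 2.

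Downwards, the largest changes at a mean over 100 were those of *D630045J12Rik*, *Slc7a8*, *Egfr*, *Atp8b4*, *Cyp4f16*, *Scin*, *Plac8*, *Il1rl2*, *Qrfp* and *Il1r1*, at −3.17 or below. *Il1r1*, the IL-1 receptor, had 47.2, 70.0 and 41.3 normalized counts in rescued Treg cells and 631 and 321 in “wannabes” (log2 fold change −3.17, SE 0.71, adjusted p = 0.0122; not called without “wannabe” replicate 1). *Il1rl2*, the IL-36 receptor, had 92.6, 20.7 and 27.5 against 627 and 549 (log2 fold change −3.64, SE 0.76, adjusted p = 0.0083; 8 of 8 fits; −4.59 without rescued replicate 1). *Egfr*, the epidermal growth factor receptor, had 23.6, 3.89 and 45.9 against 364 and 442 and was called in 4 of 8 fits. *D630045J12Rik* had 10.4, 1.30 and 8.26 against 357 and 520 (log2 fold change −5.98, SE 1.33, adjusted p = 0.0121; 8 of 8 fits). Values of *Scin* (−3.74), *Atp8b4* (−3.86), *Plac8* (−3.69) and *Cyp4f16* (−3.83) also moved with 1 library, to −2.54 and −3.21 without “wannabe” replicate 1 for the former pair and to −3.04 and −3.24 without “wannabe” replicate 2 for the latter. Among genes with a mean over 5000, *Sema4a*, a semaphorin that costimulates T cells, had 2997, 1892 and 2131 against 9347 and 15793 (log2 fold change −2.42, SE 0.26, adjusted p = 0.00029). *Ehd3*, an endosomal recycling protein, had 3347, 2693 and 2457 against 12375 and 15862 (log2 fold change −2.32, SE 0.20, adjusted p = 0.000233), and *Ncoa7* 4383, 6383 and 3461 against 22959 and 14097 (−1.97). In *Sema4a*, *Ehd3* and *Ncoa7* the rescued libraries were at the level of control Treg cells, whose means differed from theirs by at most 0.03 on the log2 scale.

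Foxp3 belongs to the forkhead family, many members of which bind the letters TGTTTAC or their reverse complement GTAAACA, so the 250 bases before each transcript start listed in RefSeq were searched for these on both strands, and a gene counted once where any of its starts had them. Of 11460 tested genes with an entry in RefSeq's promoter sequences (GRCm38.p6), 319 (2.78%) held them, against 44 of 1139 (3.86%) of the genes called higher and 9 of 474 (1.90%) of those called lower. The share is a description of letters and not of binding. The stretches of 5 called genes named here that held the letters are shown because their values are given above, 4 higher (*Ltb*, *Pim1*, *Bbc3*, *Rsrp1*) and 1 lower (*Dapl1*) in rescued Treg cells. Capitals mark the letters and all stretches are on the plus strand.
Ltb, chr17:35194371-35194400: ccccagcgctggGTAAACAggaagctgggt
Pim1, chr17:29493003-29493032: tccccaaagtttGTAAACAggaatcacgtg
Bbc3, chr7:16310082-16310111: gtctggcgggttTGTTTACaaacaatgggg
Rsrp1, chr4:134923383-134923412: aaaaaccctgaaGTAAACAaatcctcaaaa
Dapl1, chr2:59484477-59484506: tcactctgtcctGTAAACAtctacctggct
Counted from the RefSeq transcript start they precede, the letters begin 124 bases before it in *Ltb*, 70 in *Pim1*, 167 in *Bbc3*, 230 in *Rsrp1* and 164 in *Dapl1*. *Pim1* and *Bbc3* have more than 1 RefSeq start, and their stretches lie inside the gene as GENCODE bounds it, after its first start. GENCODE places the start of *Ltb* at 35194439, closer to the letters.

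No marker of other cells was called. In 5 lists, of B and plasma cells, myeloid cells, dendritic cells, CD8 and NK cells, and erythroid and stromal cells, 31 genes were tested. None was called by edgeR or by DESeq2, and 1 had an unadjusted p under 0.05. Without “wannabe” replicate 2, 1 erythroid or stromal gene was called higher. Summed over all listed genes in the table, normalized counts were 1269 to 1532 in rescued Treg cells and 1200 to 1489 in “wannabes” for B and plasma cells, 128 to 253 and 226 to 246 for myeloid cells, and 725 to 933 and 756 to 1200 for CD8 and NK cells. For dendritic cells they were 1941 to 2439 and 1849 to 3294, and for erythroid and stromal cells 5022 to 6778 and 6242 to 6704. *Ccr9* and *Pecam1*, which T cells also express, made up most of the last 2 sums, with means of 2160 and 2360 and of 5470 and 5970 normalized counts. The defining genes *S100a8* and *Siglech* had at most 0.92 normalized counts in any rescued or “wannabe” library, and *Jchain* at most 13.8. Other members were detected in both groups, with means in rescued Treg cells and “wannabes” of 1130 and 1100 for *Cd79b*, 205 and 190 for *Cd79a*, 617 and 752 for *Cd8b1* and 144 and 108 for *Cd68*. *Ncr1* had a mean of 38.9 in rescued Treg cells and 0 in “wannabes” and was not called (adjusted p = 0.144).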

How the data were processed

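Counts of reads per gene were deposited by the authors as a table of whole numbers for the male mice, made after alignment with STAR 2.7.3a per the labels. The authors used DESeq2 1.28.1 on these counts. The annotation and the strand setting of counting are not given in the sources used here. No column was left without a sample, and the 4 rows with no gene name, under 0.01% of counts, were left out.

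Groups came from the sample labels, which name no batch or date, and the study's methods call the replicates biological, without saying how many mice each library holds. The 8 male libraries were fitted together with edgeR 4.0.16 (R 4.3.3, TMM scaling, filterByExpr, quasi-likelihood test, Benjamini-Hochberg adjustment over 14925 genes, threshold 0.05), and rescued Treg cells were contrasted with “wannabes”. The common biological coefficient of variation was 0.51. Total counts were 25558402 or more per library, and libraries of a group differed by far more than counting error, so the spread between libraries sets the precision. Genes are named where they are the 5 marker genes, the 10 largest called changes in each direction at a mean over 100, the 6 largest at a mean over 5000, key members of the gene lists, or up to 4 called members per list and direction. *Ccdc22* and further called members of a list were named after their values were seen. The members and lists were chosen with earlier results of these data known. Symbols were matched to GENCODE for transcript features (96.9% of them). The correction used a spline with 4 degrees of freedom per library in GC content and length, with features for 97.3% of tested genes. Alternatives were DESeq2 1.42.0, its size factors, other filters, the 5 libraries alone, a replicate block, each library left out, and the correction, which was added after seeing the data. The scripts were tested on simulated data. Tables and figures were made with Python 3.11.15, pandas 2.3.3 and matplotlib 3.10.9.

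The labels give replicate numbers in each group but no shared animal, litter or day. The deviations of same-numbered rescued and “wannabe” libraries from their group means correlated at 0.03 and −0.03, so the numbers were not taken as pairs. Some members of the gene lists are counted but not reported here by name.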

Additional observations from a re-analysis of the deposited data

How the results depend on the processing

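The 2105 called genes (1499 higher, 606 lower) became 3316 by DESeq2, of which 1254 were lower, and 2103 were shared. At an unadjusted p under 0.05 there were 4178, of which 2427 were higher and 1751 lower. With the 5 compared libraries fitted alone, 1421 genes were called, 1087 higher and 334 lower, and 25 named genes lost their call. With the correction for GC content and length, chosen after seeing the data, 1247 were lower. Leaving out each library gave 1570 to 1959 called genes, 1222 to 1359 higher and 222 to 660 lower, the lowest without rescued replicate 2 and the highest without “wannabe” replicate 1, where 1 “wannabe” library remained and the fit had fewer samples. DESeq2 size factors, no filter on low counts and a mean over 100 left each of the 3 counts within 1.5 times. *Nt5e* was the named gene that changed sign past the threshold, from 0.24 to −0.58 with the correction. The causes were not tested.

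The replicate numbers share no stated source. With the replicate block 1968 genes were called (1451 higher, 517 lower), and 1782 were shared. With the correction and the replicate block together, 1147 were lower and *Nt5e* was at −0.60. Genes with few counts are imprecise at this depth, and every comparison rests on 2 “wannabe” libraries.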

Other observations

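Genes of the cytosolic ribosome, grouped by symbol after the values were seen, had medians below 0. Of 47 genes of the large subunit, 21 were called lower and 0 higher by edgeR, with a median log2 fold change of −0.67, and of 32 genes of the small subunit, 15 were lower and 0 higher, with a median of −0.71. No member was higher by DESeq2 or at an unadjusted p under 0.05 either. These counts rest on single libraries. Of the large subunit, 0 genes were called lower without “wannabe” replicate 2 and 32 without “wannabe” replicate 1. Of the small subunit, 1 was called lower without “wannabe” replicate 2, 1 without rescued replicate 3 and 20 without “wannabe” replicate 1. In the fit corrected for GC content and length, 18 and 11 were lower. Ribosomal protein genes have many near-identical pseudogenes, so counts of single members are uncertain.

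Genes of serine/arginine-rich splicing factors, also grouped after the values were seen, were called higher for 5 of 11, with a median of 0.85, and 4 or 5 were higher in each of the 8 fits that left out a library. In the corrected fit 4 were higher and 4 lower, with a median of 0.22. Of 77 mitochondrial ribosomal protein genes, 7 were higher and 1 lower, with a median of −0.40, and 7 were higher and 10 lower in the corrected fit.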
